A study of Homo sapiens with 6 samples.

Results

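The members described here are 50 genes of glycosylphosphatidylinositol (GPI) anchor synthesis, dolichol-phosphate mannose synthesis and N-glycan assembly. They were a list of gene symbols, matched through their Ensembl identifiers to the 23406 features of the deposited count and FPKM tables. Of the 50, 49 had a row, 1 (PIGW) had none under the identifier in the name table used, and 48 passed the filter on low counts, of 14071 features tested. The libraries came from Hep-3B, a human hepatocellular carcinoma line, in which lentivirus delivered either a control hairpin (the shControl group) or a hairpin that targets NXN (the shNXN group), and both groups were selected with puromycin. NXN encodes nucleoredoxin, a thioredoxin-family oxidoreductase. Each group had 3 libraries, collected on day 7, day 9 and day 11, so that replicates 1, 2 and 3 are these days and each group had 1 library a day. The labels name 1 line and give the hairpin against NXN 1 name, and cells without an shRNA were not analysed here. Nothing in the labels says that the days were separate cultures, so p-values measure the spread between these libraries. Without the day as a block, this spread holds any change from day to day, and the rest of it may be technical. The question was which members differed between shNXN and shControl cells, day by day and over the days, and how this related to the GC content of their transcripts.

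GPI anchors and N-glycans are both built on lipids of the endoplasmic reticulum membrane. For the anchor, sugars and ethanolamine phosphate are added stepwise to phosphatidylinositol, and a transamidase joins the finished lipid to the carboxyl end of secretory proteins, which it then holds at the cell surface. For the N-glycan, an oligosaccharide is assembled on dolichol by the ALG enzymes, at the cytosolic and then at the lumenal face, and oligosaccharyltransferase moves it to asparagine residues of proteins entering the secretory pathway. Both routes draw mannose from dolichol-phosphate mannose, and hepatocytes secrete many N-glycosylated plasma proteins.

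Because the differences described here ordered by transcript GC content, coding sequence is shown for the 3 members with the lowest GC content (PIGK, PGAP1 and ALG6) and for 3 of the 4 with the highest (PIGQ, DPM3 and PGAP3). Each run is 30 codons (90 bases) from the middle of the longest coding exon of the longest coding sequence in GENCODE 29 (GRCh38), in frame and 5′ to 3′ on the coding strand, and capitals mark G or C at the third position of a codon.
PIGK: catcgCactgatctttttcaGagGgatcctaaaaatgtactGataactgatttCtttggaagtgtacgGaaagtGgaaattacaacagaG
PGAP1: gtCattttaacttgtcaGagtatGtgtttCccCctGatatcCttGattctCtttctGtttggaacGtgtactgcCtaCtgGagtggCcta
ALG6: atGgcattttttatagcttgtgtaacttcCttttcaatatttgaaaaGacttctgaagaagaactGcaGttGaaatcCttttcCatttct
PIGQ: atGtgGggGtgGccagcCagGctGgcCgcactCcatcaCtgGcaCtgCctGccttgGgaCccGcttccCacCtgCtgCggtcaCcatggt
DPM3: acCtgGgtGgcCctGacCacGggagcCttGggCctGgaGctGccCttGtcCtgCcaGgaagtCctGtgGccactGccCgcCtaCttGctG
PGAP3: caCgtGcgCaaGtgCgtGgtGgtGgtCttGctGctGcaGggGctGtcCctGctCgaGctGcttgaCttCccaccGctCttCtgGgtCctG
The PIGK run (chr1:77154490-77154579, minus strand) had G or C at the third position of 8 of 30 codons, the PGAP1 run (chr2:196847056-196847145, minus strand) at 15, and the ALG6 run (chr1:63428983-63429072, plus strand) at 8. The PIGQ run (chr16:583212-583301, plus strand) had 22, the DPM3 run (chr1:155140103-155140192, minus strand) 27 and the PGAP3 run (chr17:39673107-39673196, minus strand) 28. Over the longest transcript, GC content was 34.9% for PIGK, 35.0% for PGAP1 and 35.7% for ALG6, against 66.7% for PIGQ, 60.5% for DPM3 and 60.3% for PGAP3.

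NXN itself (ENSG00000167693) was lower in every shNXN library, with 181, 138 and 143 CPM (estimated counts scaled to library size, with TMM factors) in shControl and 42.7, 47.5 and 39.5 CPM in shNXN on days 7, 9 and 11. Its log2 fold change was -1.83 (SE 0.16, edgeR adjusted p = 0.0378). The call was lost without the shControl library of day 7 or day 11 (adjusted p = 0.131 and 0.0633) or the shNXN library of day 7 or day 9 (adjusted p = 0.225 and 0.162), with log2 fold changes from -1.90 to -1.67. Estimated counts summed to between 15349382 and 16332589 per library. All 8 hepatocyte and hepatoma markers were at 1 CPM or more in every library. Their summed level ran from 11613 to 21865 CPM in shControl and from 4802 to 13112 CPM in shNXN. ALB was at 1420.3, 683 and 7249.6 CPM in shNXN against 9566, 13655 and 6955 CPM in shControl. The 8 markers did not move together. SERPINA1 was higher in every shNXN library (log2 fold change 0.44) and AFP lower (-1.07). ALB, APOB and FGB were at -1.69, -0.94 and -0.50, and APOA1, TTR and GPC3 at 0.09, -0.12 and -0.13. None had an edgeR adjusted p under 0.05. The part of this in the members' differences was not tested. Of the other cell types' defining markers, VWF, KDR and CD3E were at 0 in every library, and PTPRC, COL3A1, DCN and CDH5 did not exceed 0.185 CPM. The fibroblast markers COL1A1 and PDGFRB were detected in every library, at 1.31 to 2.64 and 2.40 to 6.44 CPM. LUM reached 0.738 CPM, and PECAM1 had no row. The summed fibroblast, leukocyte and endothelial lists ran up to 7.12, 219.7 and 0.0613 CPM in shControl and 8.57, 369.9 and 0 CPM in shNXN, the leukocyte sum being almost wholly LYZ and CD68.

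Of the 48 tested members 7 (PGAP1, ALG6, PIGK, STT3B, PIGB, MAGT1 and OSTC) fell in shNXN cells (edgeR quasi-likelihood test, Benjamini-Hochberg adjusted p under 0.05), and no member rose. This was 14.6% of the members, beside 3.39% of all tested features in either direction, 3.21% lower and 0.185% higher. The 7 span several steps: PIGB adds a mannose to the GPI anchor, PIGK is the catalytic subunit of the GPI transamidase, PGAP1 removes an acyl chain from the attached anchor, ALG6 adds the glucose that begins the glucosylation of the dolichol oligosaccharide, and STT3B, OSTC and MAGT1 are oligosaccharyltransferase subunits. The median log2 fold change was -0.34 over the 48 members and 0.03 over all tested features, and 28 members were below 0. An unadjusted p under 0.05 was reached by 17 members, beside 32.9% of all features. Every shNXN library lay below every shControl library for 17 members and above for 7, beside 21.5% and 19.0% of all features.

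The days pair the libraries, and with day as a block 16 members were called (edgeR), 14 lower and 2 higher. The background was 23.3% of features in that fit, 17% lower and 6.28% higher. The 7 members called without the block were among the 14, joined by PIGA, PIGP, PIGN, PIGF, ALG5, ALG8 and TUSC3, and the members that rose were GPAA1 and DDOST. Single libraries decided the count without the block: it was 0 without the shControl library of day 7 or of day 11 or the shNXN library of day 7 or of day 9, 2 without the shControl library of day 9, and 18 without the shNXN library of day 11. The calls over all features moved with it: 0 in each of the 4 fits with no member called, 248 of 14325 in the fit with 2, and 3706 of 14383 in the fit with 18. The 4 fits with no call had 2668 to 4229 features at an unadjusted p under 0.05.

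**Figure D1:**
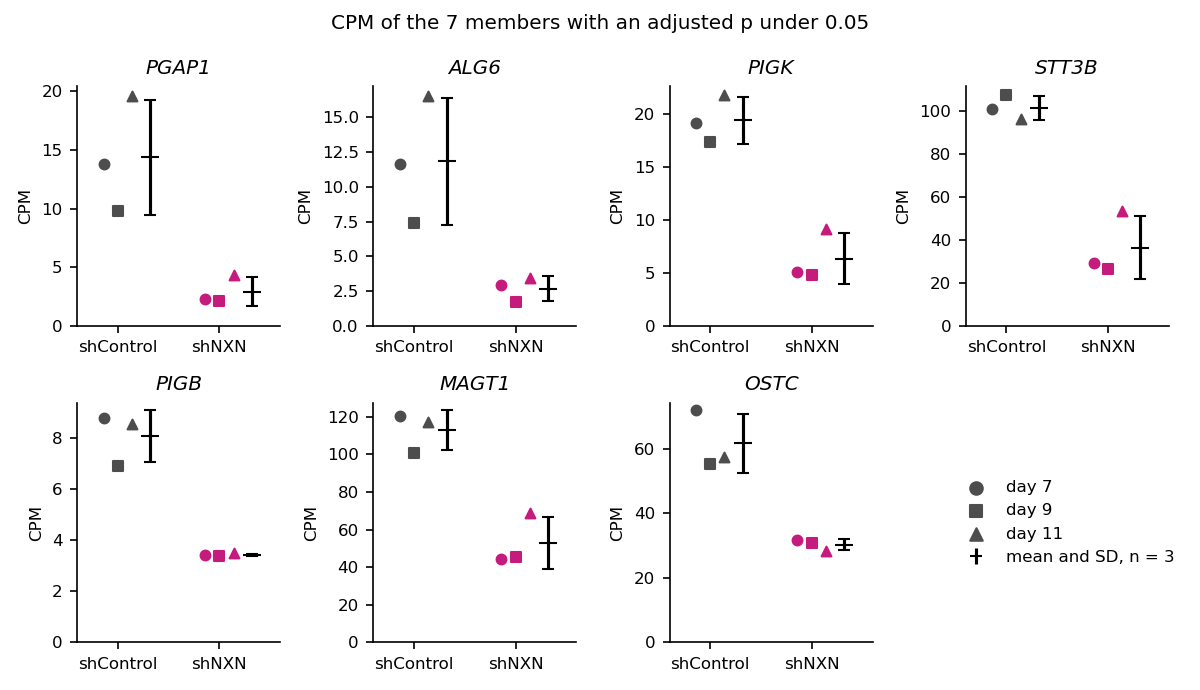
CPM of each library for the 7 called members, shControl in grey and shNXN in magenta, with the marker shape giving the day and the bar the mean and SD of 3 libraries. In each panel all shNXN points lie below all shControl points, and in all panels but that of OSTC the day 11 shNXN point is the highest of its group.

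Taking transcript GC content into account removed every call. With a GC correction of the libraries, 0 members were called (edgeR), beside 0.0355% of all features. With the day block as well it was 0, beside 0.931%. In the fit with the correction alone, 11 members (22.9%) reached an unadjusted p under 0.05, beside 17.4% of features. With the block as well 12 members (25%) did, beside 22%. DESeq2, without a GC correction, called 15 members, beside 16.1% of 19384 features. That wider set includes features that did not pass the filter on low counts, which the 48 members did, so the 2 shares are not alike. The smallest adjusted p among members with block and correction was 0.0718, for STT3B. The median log2 fold change of the members was then -0.10, and 32 of 48 were below 0. The correction removes any difference that follows GC content, whatever its origin, and the origin was not tested.

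Log2 fold change and GC content were ordered alike across features. Spearman's rho was 0.79 over 12740 features and 0.84 over the 48 members, and with the GC content of the coding sequence it was 0.79 and 0.90. These correlations are across genes of the same 6 libraries and describe these libraries. The called members had a GC content of 34.9% to 42.5%, and all 7 lay in the 3 lowest of 10 equal-sized bins of GC content, where 17.7%, 9.34% and 4.16% of features were called lower. The median GC content was 44.2% for the tested members and 48.4% for all tested features with a value.

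Split by GC content, the members differed as follows. The 25 members under 45% GC had a median log2 fold change of -0.98, and 24 of them were below 0. In that range 28% of members and 8.45% of all features were called lower, and with the day block 56% and 45%. The 6 members at 45% to 50% had a median of -0.08 and no call. The 17 members at or over 50% had a median of 0.26, only DPAGT1 among them was below 0, and the 2 called with the block, GPAA1 and DDOST, were higher. Set against the median of all features in the same GC bin, 33 members were lower and 15 higher, with a median distance of -0.13. The members furthest below their bin were PGAP1 and ALG8 (-1.01 each), ALG6 (-0.86) and STT3B (-0.85), and the furthest above were PIGL (0.68), PIGX (0.59) and PIGM (0.55).

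**Figure D2:**
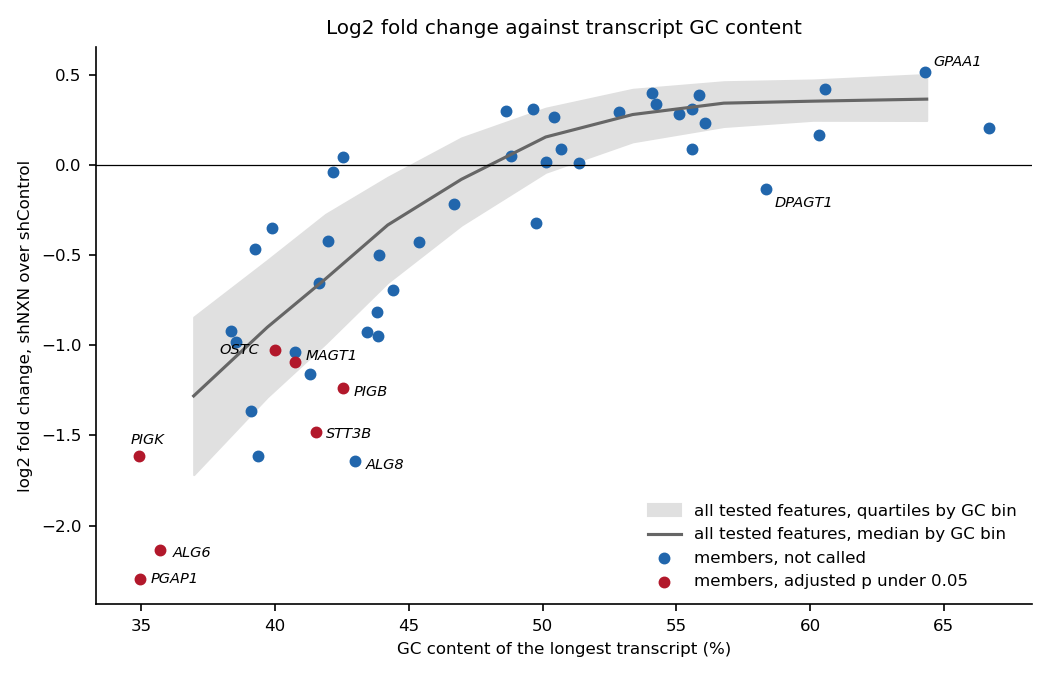
Log2 fold change of shNXN over shControl against the GC content of each gene's longest transcript (%), for the 48 members (points, red where the adjusted p was under 0.05) over the median and quartiles of all tested features in 10 equal-sized bins of GC content. Members follow the rising line of the other features, and the 7 called members lie at 34.9% to 42.5% GC, on or below it.

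By day, the median difference of the 48 members on the log2 CPM scale was -0.40, -0.24 and -0.04 on days 7, 9 and 11, beside medians of 0.00, -0.00 and 0.07 over all features. After the GC correction the members' medians were -0.14, -0.13 and -0.04. Among the 25 members under 45% GC the medians were -1.12, -1.15 and -0.61, and 14 of them (56%) were least lowered on day 11, beside 63.0% of all 4842 features in that range. A test of the change of the shNXN effect with day (edgeR, 2 residual degrees of freedom) called 0 members and 0 features, with 1 member, ALG8, and 152 features (1.08%) at an unadjusted p under 0.05. With 1 library per group and day, a difference on a single day has no replicate check.

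**Figure D3:**
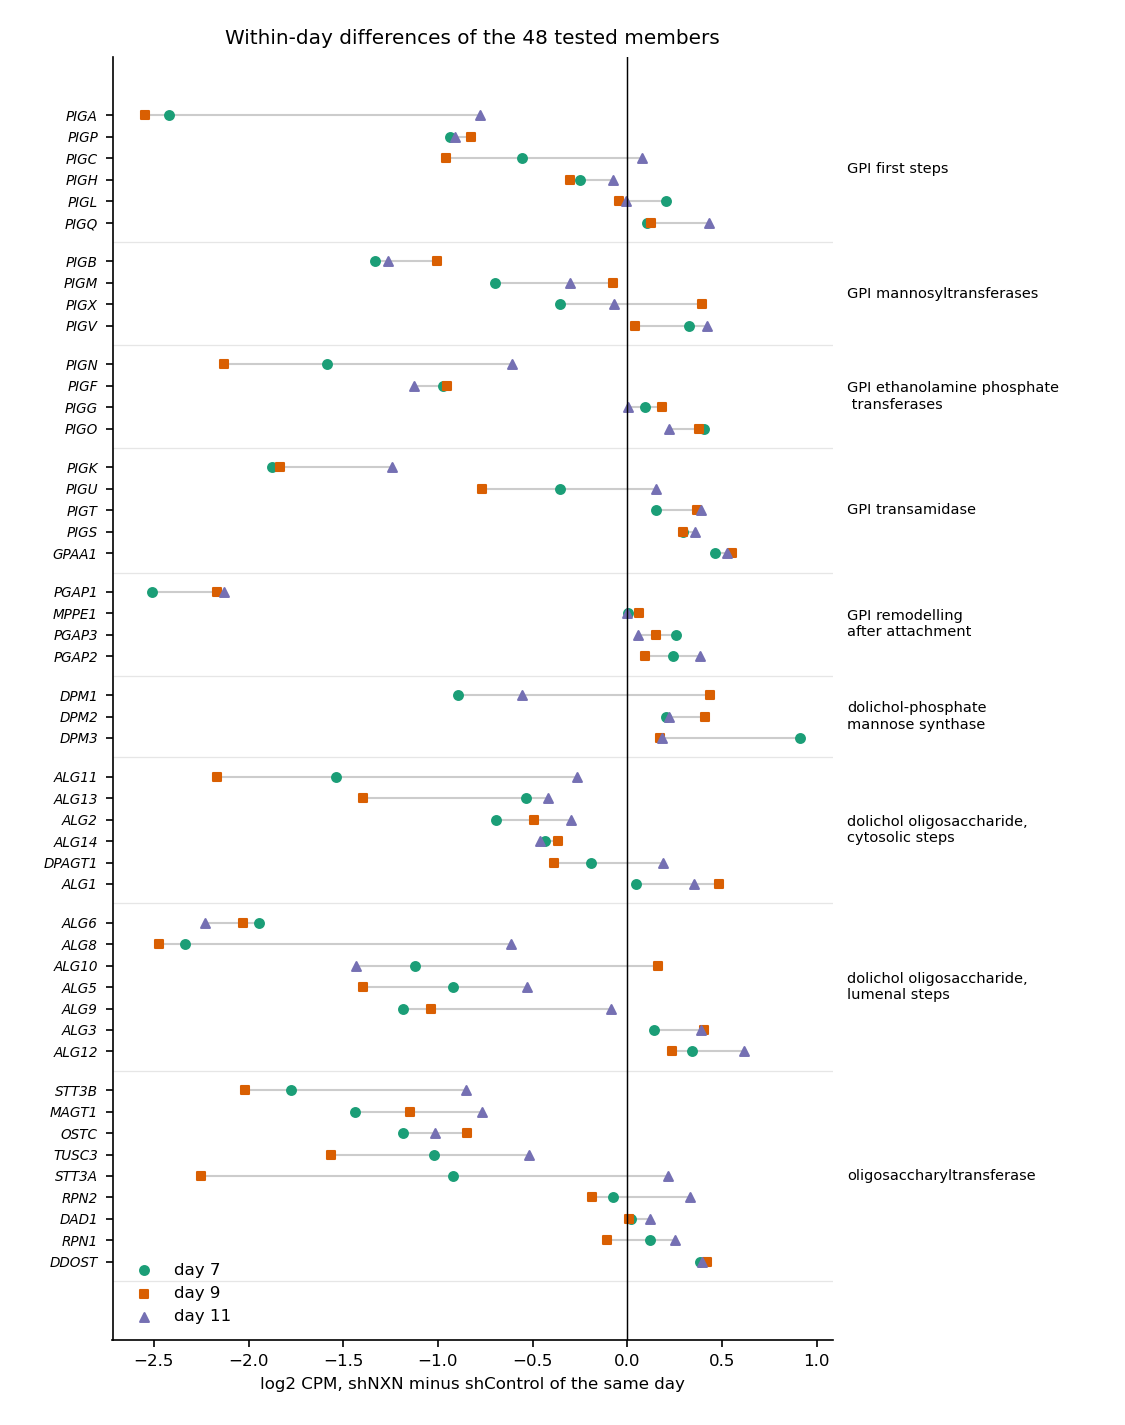
Difference in log2 CPM between the shNXN and the shControl library of the same day, for each of the 48 tested members in 9 role groups, with the shape and colour giving the day. PGAP1 and ALG6 lie between -2.51 and -1.95 on each day, while PIGA, PIGN, ALG8, ALG11 and STT3A are lowest on day 9 and highest on day 11.

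The early steps make glucosaminyl-phosphatidylinositol. Of 8 listed members 6 were tested and 0 were called (edgeR), with 2 at an unadjusted p under 0.05, 2 called with the day block and 2 by DESeq2, PIGA and PIGP in each case. Each time this was 33.3% of the 6, beside 32.9%, 23.3% and 16.1% of all features. PIGA, the catalytic subunit of the enzyme that starts the anchor, was at 17.5, 17.8 and 21.4 CPM in shControl and 3.16, 2.94 and 12.4 CPM in shNXN on days 7, 9 and 11. The groups did not overlap, and day 11 of shNXN stood well above the other two. The log2 fold change was -1.61 (SE 0.56, edgeR adjusted p = 0.107), and -1.91 with the block (adjusted p = 0.0345). PIGP, a small subunit of the same enzyme, was at 4.20, 4.12 and 4.23 CPM in shControl and 2.13, 2.27 and 2.19 CPM in shNXN. Its libraries were nearly level within each group, with a log2 fold change of -0.93 (SE 0.24, edgeR adjusted p = 0.0678), and -0.93 with the block (adjusted p = 0.0438). PIGL, which removes the acetyl group, was the member of the group with the highest mean FPKM (60.9) and had a log2 fold change of 0.05 (SE 0.20, edgeR adjusted p = 0.881), with overlapping groups. PIGC, PIGH and PIGQ had log2 fold changes of -0.43, -0.22 and 0.21, none past the threshold.

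PIGY, another subunit of the first enzyme, did not pass the filter. It held 0, 6.6 and 1.01 estimated counts in shControl and 0, 0 and 0.47 in shNXN, although its FPKM was listed at 0, 33.8 and 29 in shControl and 0, 0 and 8.35 in shNXN. These FPKM values rest on fewer than 7 counts and a gene model of 217 bases (GRCh38 chr4:88521573-88521789, minus strand), which lies within that of PYURF (chr4:88520985-88523813, minus strand), so reads of one cannot be told from reads of the other. PYURF was at 262.84, 17.97 and 202.61 estimated counts in shControl and at 0 in every shNXN library. Against a floor of 3 counts summed over the group, which covers counting error only, this was at least 162-fold lower, and the edgeR adjusted p was 0.0559, or 0.0146 with the block and 0.0381 with block and GC correction. Its shControl libraries also differed among themselves, day 9 being the lowest.

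The GPI mannosyltransferases were PIGM, PIGX, PIGV and PIGB, and 1 of the 4 fell (25%). Called lower were 3.21% of all features and 8.45% of those under 45% GC. PIGB, which adds the third mannose, was at 8.79, 6.89 and 8.53 CPM in shControl and 3.41, 3.37 and 3.48 CPM in shNXN. The shNXN libraries were close together and all below shControl, with a log2 fold change of -1.24 (SE 0.23, edgeR adjusted p = 0.0466). After block and GC correction it was -0.62 (SE 0.24, adjusted p = 0.206). PIGX, the partner of PIGM, was at 20.4, 13 and 20.7 CPM in shControl and 15.9, 17.2 and 19.7 CPM in shNXN, with overlapping groups and a log2 fold change of -0.04 (SE 0.24, edgeR adjusted p = 0.92). PIGM and PIGV, which add the first and the second mannose, had values of -0.35 and 0.26, with overlapping groups. With block and GC correction PIGX and PIGM were at 0.64 and 0.59 (edgeR adjusted p = 0.194 and 0.185). With the correction built on the GC content of the coding sequence they were at 1.03 and -0.25, a change of sign for PIGM.

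Of the 4 ethanolamine phosphate transferase members 0 were called (edgeR), and PIGN and PIGF reached an unadjusted p under 0.05 and were called with the block and by DESeq2. Each time this was 50% of the 4, beside 32.9%, 23.3% and 16.1% of all features. PIGF, which works with PIGO and PIGG, was at 10.2, 9.47 and 12 CPM in shControl and 5.11, 4.84 and 5.41 CPM in shNXN. No libraries overlapped, and the log2 fold change was -1.04 (SE 0.22, edgeR adjusted p = 0.0511) without the block and -1.03 with it (adjusted p = 0.024). PIGN, which modifies the first mannose, was at 37.1, 48.4 and 36.9 CPM in shControl and 12.3, 11.0 and 24.2 CPM in shNXN, the last being day 11. The log2 fold change was -1.37 (SE 0.33, edgeR adjusted p = 0.0607), and -1.44 with the block (adjusted p = 0.0348). PIGG had a log2 fold change of 0.09 and PIGO one of 0.34, neither past the threshold in either fit.

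Of the 5 GPI transamidase subunits 1 fell (20%), beside 3.21% of all features called lower and 8.45% of those under 45% GC. PIGK (GRCh38 chr1:77088990-77219430, minus strand) was at 19.1, 17.4 and 21.7 CPM in shControl and 5.11, 4.78 and 9.09 CPM in shNXN. All shNXN libraries were lower, day 11 the least, with a log2 fold change of -1.62 (SE 0.30, edgeR adjusted p = 0.0466). GPAA1, a subunit that takes part in joining the anchor to the protein, was at 162, 163 and 136 CPM in shControl and 223, 238 and 197 CPM in shNXN, higher in all 3 libraries. The log2 fold change was 0.51 (SE 0.14, edgeR adjusted p = 0.072), and with the block it rose by 0.51 (adjusted p = 0.0264). PIGS, PIGT and PIGU had log2 fold changes of 0.31, 0.30 and -0.32. The GC contents were 34.9% for PIGK and 64.3% for GPAA1, and with block and GC correction their log2 fold changes were -0.20 (SE 0.18, edgeR adjusted p = 0.56) and 0.11 (SE 0.10, adjusted p = 0.576).

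Among the enzymes that remodel the anchor after attachment, 1 of 4 fell (25%). Of all features 3.21% were called lower, and 8.45% of those under 45% GC. PGAP1 (GRCh38 chr2:196833004-196927796, minus strand) was at 13.8, 9.78 and 19.6 CPM in shControl and 2.31, 2.08 and 4.38 CPM in shNXN. Its log2 fold change of -2.30 (SE 0.40, edgeR adjusted p = 0.0452) was the largest of the 48 in size in this fit, and the within-day values were -2.51, -2.17 and -2.13. After block and GC correction it was -0.86 (SE 0.19, adjusted p = 0.0843). On the FPKM scale it was listed at 1.98, 1.68 and 2.86 in shControl and 0.60, 0.39 and 0.76 in shNXN, the lowest mean FPKM of the tested members. PGAP2, PGAP3 and MPPE1, which act on the lipid and on the ethanolamine phosphate of the anchor, had log2 fold changes of 0.23, 0.17 and 0.02, with overlapping groups.

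No member of the dolichol-phosphate mannose synthase was called by edgeR, with or without the block, or by DESeq2. In the edgeR fits 0 members reached an unadjusted p under 0.05, while DPM2 did with DESeq2 (unadjusted p = 0.0471). DPM1, the catalytic subunit, was at 52.0, 18.9 and 44.3 CPM in shControl and 27.9, 25.6 and 30.0 CPM in shNXN. The shControl library of day 9 was low, and the log2 fold change was -0.46 (SE 0.35, edgeR adjusted p = 0.372). DPM2, which with DPM3 holds the enzyme in the membrane, was at 40.6, 38.3 and 40.4 CPM in shControl and 46.9, 50.9 and 47.2 CPM in shNXN, without overlap and with a log2 fold change of 0.28 (SE 0.14, edgeR adjusted p = 0.199). DPM3 had a log2 fold change of 0.42 (SE 0.29, edgeR adjusted p = 0.332).

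At the cytosolic steps of the dolichol oligosaccharide 0 of 6 members were called by edgeR with or without the block. Without the block 2 (ALG2 and ALG11) reached an unadjusted p under 0.05 (33.3%, beside 32.9% of all features). With the block 4 did, ALG13 and ALG14 as well (edgeR unadjusted p = 0.0246 and 0.0406), beside 6436 of 14071 features. DESeq2 called 1, ALG2, beside 16.1% of features. ALG2, which adds the second and the third mannose, was at 60.6, 48.6 and 49.4 CPM in shControl and 37.5, 34.4 and 40.2 CPM in shNXN. The groups did not overlap, and the log2 fold change was -0.50 (SE 0.16, edgeR adjusted p = 0.0944). DPAGT1, which starts the oligosaccharide and is the target of tunicamycin, had a log2 fold change of -0.13 (SE 0.18, edgeR adjusted p = 0.618), and was the only member at or over 50% GC below 0. ALG11, the mannosyltransferase that completes the cytosolic part, was at 9.77, 8.98 and 8.46 CPM in shControl and 3.29, 1.90 and 7.02 CPM in shNXN, with a log2 fold change of -1.16 (SE 0.45, edgeR adjusted p = 0.132). ALG13 and ALG14, which together add the second N-acetylglucosamine, had values of -0.70 and -0.42. ALG1, which adds the first mannose and has near-identical copies in the genome that make its counts uncertain, had a value of 0.29.

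The lumenal steps had a median log2 fold change of -0.95 over 7 members. In this group 1 member was called (14.3%, beside 3.39% of all features), and with the block 3 (42.9%, beside 23.3%). These 3 were lower, and 45% of all features under 45% GC were called lower with the block. ALG6 (GRCh38 chr1:63367575-63438562, plus strand) was at 11.6, 7.38 and 16.5 CPM in shControl and 2.92, 1.72 and 3.42 CPM in shNXN, and its highest shNXN library was below its lowest shControl library. Its log2 fold change was -2.14 (SE 0.40, edgeR adjusted p = 0.0466), and -0.73 after block and GC correction (SE 0.23, adjusted p = 0.146). ALG8, which adds the second glucose, was at 56.6, 62.1 and 47.7 CPM in shControl and 11.1, 11.1 and 31.1 CPM in shNXN. This was a log2 fold change of -1.64 (SE 0.42, edgeR adjusted p = 0.0674), and -1.81 with the block (adjusted p = 0.0372). With block and GC correction ALG8 had the lowest value of the 48, -1.25 (SE 0.30, adjusted p = 0.103).

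ALG5, which makes the glucose donor dolichol-phosphate glucose, was at 39.2, 54.0 and 41.0 CPM in shControl and 20.7, 20.4 and 28.3 CPM in shNXN. ALG5 had a log2 fold change of -0.95 (SE 0.22, edgeR adjusted p = 0.057), and -0.95 with the block (adjusted p = 0.033). ALG3 and ALG12, lumenal mannosyltransferases with 55.6% and 55.8% GC, were higher in every shNXN library, with log2 fold changes of 0.31 (SE 0.14, edgeR adjusted p = 0.159) and 0.39 (SE 0.16, adjusted p = 0.151). ALG9 had a value of -0.65. ALG10, which adds the last glucose and has a near-identical paralog that can share its reads, had a value of -0.98.

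In oligosaccharyltransferase 3 of 9 subunits were called lower (33.3%, beside 3.21% of all features). With the block 4 were called lower and 1 higher (55.6% in either direction, beside 23.3%). All 4 had a GC content under 45%, where 8.45% of features were called lower without the block and 45% with it. STT3B, the catalytic subunit of one form of the enzyme, was at 101, 107 and 96.2 CPM in shControl and 29.5, 26.4 and 53.3 CPM in shNXN. All shNXN libraries were lower, day 11 the least, with a log2 fold change of -1.48 (SE 0.28, edgeR adjusted p = 0.0472). MAGT1, an oxidoreductase subunit of the STT3B form, was at 120, 101 and 117 CPM in shControl and 44.4, 45.3 and 68.8 CPM in shNXN, with a log2 fold change of -1.09 (SE 0.21, edgeR adjusted p = 0.0473). OSTC, a subunit of the STT3A form, was at 72.1, 55.2 and 57.4 CPM in shControl and 31.6, 30.6 and 28.4 CPM in shNXN, with a log2 fold change of -1.03 (SE 0.17, edgeR adjusted p = 0.0452). The 3 shNXN libraries of OSTC were close together and all below shControl. With block and GC correction STT3B was at -0.80 (SE 0.16, edgeR adjusted p = 0.0718), MAGT1 at -0.28 (SE 0.12, adjusted p = 0.266) and OSTC at -0.08 (SE 0.17, adjusted p = 0.828).

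STT3A, the catalytic subunit of the form that works alongside the translocon, was at 279, 441 and 286 CPM in shControl and 148, 92.4 and 332 CPM in shNXN. The groups overlapped because of day 11, and the log2 fold change was -0.81 (SE 0.45, edgeR adjusted p = 0.241). TUSC3, the alternative to MAGT1, was at 66.2, 82.4 and 108 CPM in shControl and 32.6, 27.8 and 75.5 CPM in shNXN, with a log2 fold change of -0.92 (SE 0.40, edgeR adjusted p = 0.157), and -1.03 with the block (adjusted p = 0.0331). RPN2, a structural subunit with the highest mean FPKM of the members (283.7), had a log2 fold change of 0.01 (SE 0.15, edgeR adjusted p = 0.97). RPN1 and DAD1 had values of 0.09 and 0.05, and DDOST had one of 0.40 (SE 0.18, edgeR adjusted p = 0.175) that passed with the block (adjusted p = 0.0361).

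Levels of different subunits were compared per length. The ratio of STT3B to STT3A on the FPKM scale was 0.205, 0.114 and 0.161 in shControl and 0.180, 0.258 and 0.0967 in shNXN on days 7, 9 and 11. The groups overlapped (two-sided exact permutation test, p = 0.9, where 3 against 3 cannot go below 0.1). The permutation tests of the ratios took no account of the pairing by day, so they do not test within-day differences. The ratio of MAGT1 to TUSC3 was 0.682, 0.537 and 0.443 in shControl and 0.979, 0.950 and 0.652 in shNXN, with shNXN higher on each day (exact permutation p = 0.2, or 0.6 adjusted over the 3 ratios computed, the other being DPM1 to DPM3). From the counts, the same ratio was not higher in shNXN on each day (exact permutation p = 0.9). On the FPKM scale STT3A stood above STT3B in every library, and TUSC3 above MAGT1. From the counts, which are not divided by length, STT3A also stood above STT3B. The count ratio of MAGT1 to TUSC3, however, was 1.82, 1.22 and 1.08 in shControl and 1.36, 1.63 and 0.911 in shNXN. By counts MAGT1 thus stood above TUSC3 in every library but the shNXN one of day 11.

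**Figure D4:**
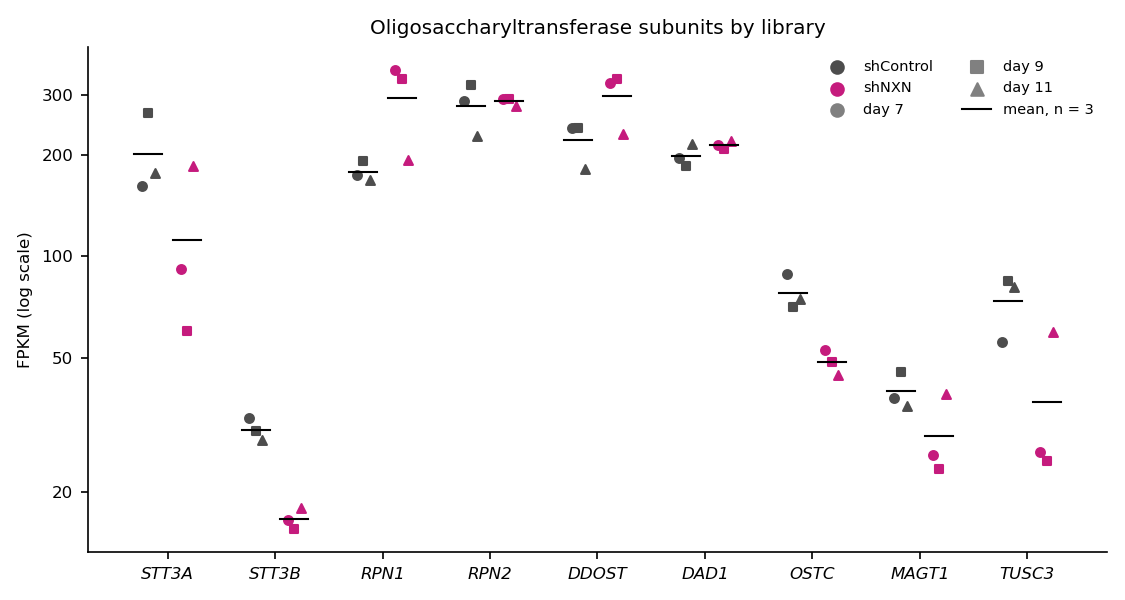
FPKM on a log scale of the 9 oligosaccharyltransferase subunits in each library, shControl in grey and shNXN in magenta, with the shape giving the day and the line the mean of 3 libraries. STT3B and OSTC separate fully by group, lower in shNXN. RPN1 is higher in shNXN, its day 11 point just above the highest shControl point. RPN2 and DAD1 overlap, and STT3A spans 59.9 to 185 in shNXN.

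The count and FPKM tables did not give the same size of difference for every member. On log2(FPKM + 1), with limma, 6 members were called, PIGP, PIGF, PIGK, PGAP1, ALG8 and STT3B, all lower, beside 2.04% of features, and the median over all features was 0.13 in place of 0.03. The log2 ratio of mean FPKM was at least 0.5 higher than that of mean CPM for 10 of 48 members (20.8%), beside 11.8% of 13970 features. For PIGA the ratio was -0.33 by FPKM against -1.61 by CPM, for ALG6 -0.93 against -2.14, and for ALG10 0.41 against -0.98, a change of sign. RPN1 was listed at 174, 191 and 168 FPKM in shControl and 357, 336 and 192 FPKM in shNXN, a ratio of 0.73 against 0.09 by CPM. PIGP went the other way, with -1.89 against -0.93.

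The GC correction moved the members unequally. Of the 14 members called lower with the block, ALG8, PIGA, PGAP1, STT3B, ALG6, PIGB and ALG5 had values from -1.25 to -0.51, with unadjusted p from 0.00222 to 0.0414. PIGP, PIGN, MAGT1, PIGK, PIGF and OSTC were between -0.44 and -0.08, and TUSC3 was at 0.09. PIGL and DPM1 had the highest corrected values, 0.66 (SE 0.17, edgeR adjusted p = 0.109) and 0.67 (SE 0.32, adjusted p = 0.282). The values after correction stayed related to the GC content of the coding sequence, with a rho of 0.46 over the members and 0.15 over 12555 features. With the correction built on the coding sequence, 0 members were called (edgeR), while 323 of 14071 features were. In that fit 10 members and 3322 of the 14071 features had an unadjusted p under 0.05. Which members stayed low depended on the GC content used: with the coding sequence PIGB was at 0.02 and ALG5 at -0.03, while OSTC was at -0.62 (SE 0.15, unadjusted p = 0.00574) and TUSC3 at -0.65 (SE 0.15, unadjusted p = 0.00474). PIGA, PGAP1, ALG8, STT3B and ALG6 were at -1.03, -0.73, -0.78, -0.68 and -0.49. PIGL was then at -0.08, while DPM1 was at 0.63.

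**Figure D5:**
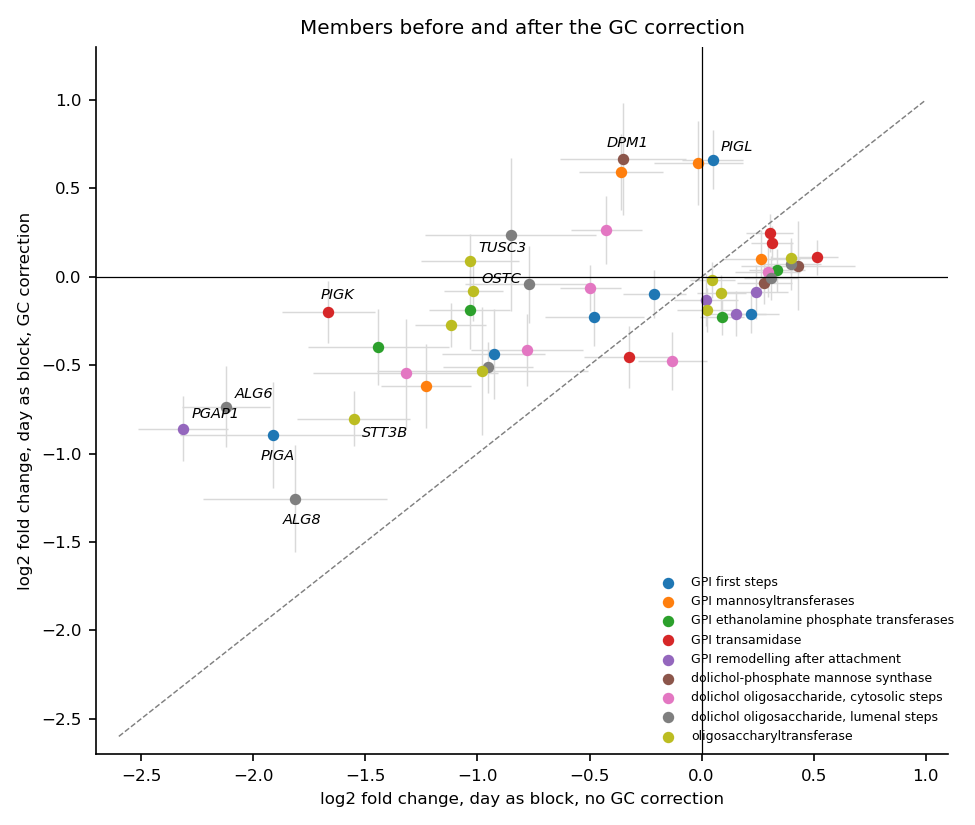
Log2 fold change of the 48 members with day as a block, before (horizontal) and after (vertical) the GC correction, coloured by role group, with bars of 1 SE and a dashed line of equality. ALG8 has the lowest corrected value, and PIGK, OSTC and TUSC3 move close to 0, and members above 0 on the horizontal axis gather between -0.3 and 0.7 on the vertical one.

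Genes of neighbouring pathways were taken from 4 further lists of 66 genes, of which 63 were tested. Of these 1 was called, NUS1, a subunit of the enzyme that makes the dolichol chain. It was at 74.3, 67.7 and 85.1 CPM in shControl and 30.7, 30.2 and 43.2 CPM in shNXN, with a log2 fold change of -1.12 (SE 0.20, edgeR adjusted p = 0.0452), and 0.03 after block and GC correction (adjusted p = 0.925). With the block 13 (20.6%) were called (edgeR), 10 lower and 3 higher, beside 23.3% of all features, and with block and GC correction 1, PYURF, beside 0.931%. The median over the 63 was 0.00.

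In the list for dolichol and sugar donors 1 of 17 tested genes was called (5.88%, beside 3.39% of all features). With the block 3 were (17.6%, beside 23.3%), all lower. PGM3 and GFPT1, enzymes of UDP-N-acetylglucosamine synthesis, had log2 fold changes of -1.45 and -0.78 (edgeR adjusted p = 0.066 and 0.0717), and -1.54 and -0.82 with the block (adjusted p = 0.0469 and 0.0336). Of 9 other oligosaccharyltransferase and GPI factors 0 were called (edgeR, 2 or 22.2% unadjusted), and PYURF and ARV1 were called with the block and by DESeq2. ARV1 and PGAP6 had log2 fold changes of -1.19 and 0.25. Of 16 genes of glycan trimming and glycoprotein folding 0 were called (edgeR, 8 or 50% unadjusted). With the block 4 were called lower and 3 higher (43.8% in either direction, beside 23.3% of all features), while DESeq2 called 5. MAN1A2 and MAN2A1, mannosidases, and UGGT2, a folding-sensor glucosyltransferase homolog, had values of -1.39, -1.23 and -1.36. Of 21 tested GPI-anchored proteins, which carry the product of the anchor pathway, 0 were called (edgeR, 5 or 23.8% unadjusted) and 2 by DESeq2. With the block 1 was (4.76%, beside 23.3% of all features), TFPI, at -1.17 (edgeR adjusted p = 0.0142). RECK and GPC1 had values of -0.91 and 0.38. Over all features 32.9% had an unadjusted p under 0.05 (edgeR). With the block 23.3% were called, and by DESeq2 16.1%.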

How the data were processed

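RNA was sequenced from 3 shControl and 3 shNXN libraries of Hep-3B cells. The authors deposited estimated counts, with 2 decimals, and FPKM values for the same features. The aligner, counting program, strand setting and annotation are not given in the sources used here. The submitters' processing notes list the builds GRCm38 and mm10, although the identifiers are human. Coordinates are those of GENCODE 29. Estimated counts share reads among transcripts, so paralogs and overlapping genes are uncertain, and FPKM also depends on the lengths used. No column lacked a sample (0 columns). Of 20314 Ensembl identifiers, 18966 had a symbol, and 15.1% to 18.8% of the values per library were not whole.

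After rounding, counts went into edgeR 4.0.16 under R 4.3.3, with TMM factors, filterByExpr and the quasi-likelihood test with Benjamini-Hochberg adjustment over all tested features. SEs are the log2 fold change over the square root of F. Alternatives used DESeq2 1.42.0 and limma 3.58.1 on log2(FPKM + 1) or log2(FPKM + 0.1). The GC correction entered a natural spline (5 degrees of freedom) of each library's log2 deviations on the GC content of the longest GENCODE 29 transcript, known for 90.5% of features, as an offset. The scripts were tested on simulated data.

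The replicate numbers follow the days, so the labels pair the libraries by day. Libraries of the same day deviated together (correlations of 0.304, 0.309 and 0.451). Between days 7 and 9 the correlations were 0.106 and 0.148, and with day 11 they were -0.368 to -0.291. Day 11 thus stood apart more than days 7 and 9 did from each other. Replicates differed by more than sampling noise (chi-square per gene of 20.1 to 77.8). The members and lists were chosen with earlier results of these data known. Named were members with an adjusted p under 0.05, the smallest p and the highest mean FPKM in each role group, STT3A, STT3B, MAGT1, TUSC3, and the 3 smallest p in each further list. PIGA, PIGN, PIGC, PIGH, PIGQ, PIGM, PIGV, PIGO, PIGS, PIGT, PIGU, PIGY, PGAP3, MPPE1, DPM3, ALG1, ALG5, ALG8 to ALG14, RPN1, DAD1 and DDOST fall outside this rule and are given to account for every member.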

Additional observations from a re-analysis of the deposited data

Results flagged for a closer look

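PIGX, DPM1 and STT3A differed between shNXN and shControl in one direction on one day and in the other on another day, by at least 0.2 on the log2 scale each way. With 1 library per group and day, the difference between days was not tested for a single gene beyond the knockdown by day term, which called none of them. Log2 differences of PIGX were -0.36 on day 7, 0.39 on day 9 and -0.072 on day 11. For DPM1 they were -0.90, 0.43 and -0.56, and its shControl library of day 9 held 18.9 CPM against 52.0 and 44.3 CPM on the other days. For STT3A they were -0.92, -2.25 and 0.22, with 441 CPM in the shControl library of day 9 and 332 CPM in the shNXN library of day 11.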

How the results depend on the processing

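The count of 7 called members became 15 with DESeq2, 16 with the replicate block, 1 with limma on log2(FPKM + 0.1), and 0 with the GC correction alone, with the block and GC correction, with GC and length, or with GC of the coding sequence. The calls over all features also moved. From 477 of 14071 they became 3127 of 19384 with DESeq2, 3272 of 14071 with the block and 66 of 14071 with that limma fit. With the GC corrections, in the order given, they were 5, 131, 86 and 323 of 14071. Leaving out 1 library gave 0 to 18 called members, and leaving out both libraries of day 7, day 9 or day 11 gave 0, 0 and 21, beside 0 of 14133, 0 of 14141 and 4519 of 14201 features. The correction on the coding sequence and the omission of days were chosen after seeing the data. The members' median of -0.34 became -0.094 with the GC correction, -0.095 with block and GC, -0.030 with block and GC of the coding sequence, -0.12 with limma on log2(FPKM + 0.1) and -0.11 on log2(FPKM + 1), with or without the block. The medians on the FPKM scales stand beside all-feature medians of 0.16 and 0.13. The count of 1 for the further lists became 15 with DESeq2, 4 with RLE factors or library size only, 2 with at least 10 counts in every library, 5 with no filter, 13 with the replicate block, 0 with the GC correction, 2 with limma on log2(FPKM + 1) and 4 with its block, and 0 to 17 with 1 library left out. Over all features RLE factors called 826 and library size only 929 of 14071. At least 10 counts called 576 of 12982, and no filter 818 of 19384. On log2(FPKM + 1) limma called 287 of 14071, and 915 with its block. With 1 library left out the features called ran from 0 to 3706. NXN lost its call without both day 7 libraries (-1.69) or both day 9 libraries (-1.95), and in 4 of 6 fits with 1 library left out, where it ranged from -1.90 to -1.67.

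Of 484 values for the 22 named members under 22 alternatives, 323 kept direction and side of the threshold, 88 lost the threshold, 25 gained it and 48 changed sign. With the GC correction, PIGX was at 0.64, PIGG -0.23, PGAP2 -0.092, DPM1 0.61, DPM2 -0.034, ALG3 -0.0077, RPN2 -0.20 and TUSC3 0.096. With block and GC these were 0.64, -0.23, -0.085, 0.67, -0.033, -0.0084, -0.19 and 0.092, and with length added 0.65, -0.22, -0.079, 0.61, -0.041, -0.014, -0.18 and 0.094. On the coding sequence PIGP was at 0.24, PIGL -0.084, PIGX 1.03, PIGB 0.018, PIGF 0.54, PGAP2 -0.010 and DPM1 0.63. On log2(FPKM + 1) DPM1 was at 0.17 and DPAGT1 at 0.55, with or without the block, and on log2(FPKM + 0.1) they were at 0.17 and 0.56. Without both day 7 libraries PIGL was at -0.029 and PIGX at 0.13, without both day 9 libraries DPAGT1 was at 0.023, and without both day 11 libraries RPN2 was at -0.13. With 1 library left out PIGL ranged from -0.035 to 0.22, PIGX from -0.20 to 0.13, RPN2 from -0.061 to 0.15 and DPAGT1 from -0.24 to 0.014. The replicate block turned no direction of a named member. Beyond the GC corrections, which remove what follows GC content, the causes were not tested. Arms left with 1 library are assumed to vary like the others, and PIGY, with at most 6.6 counts in a library, was too low to test.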
